A study of Mus musculus with 4 samples.

Results

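Macrophages of the dorsal root ganglion (DRG) that carried transcripts of the scavenger receptors *Cd163*, *Mrc1* or *Lyve1* and were not in cycle were examined in 4 single cell RNA-seq libraries. In this droplet method each RNA molecule captured at its 3′ end bears a unique molecular identifier (UMI), and each barcode stands for 1 cell. A barcode had to hold between 600 and 15000 UMIs of between 500 and 4000 genes, with under 10% of the UMIs mitochondrial. A macrophage had at least 5 UMIs of *C1qa*, *C1qb* and *C1qc* together, at least 1 of *Aif1*, *Cd68* and *Csf1r*, and at most 4 of *Fabp7*, a satellite glial gene. Those with at most 2 UMIs of 6 cell cycle genes (*Mki67*, *Top2a*, *Birc5*, *Cdk1*, *Ccnb1*, *Cenpa*) were taken as not cycling, and 428 of these had at least 2 UMIs of *Cd163*, *Mrc1* and *Lyve1* together. They were 428 of the 6095 barcodes that passed the limits, of 6975 barcodes in all. The remaining 492 non-cycling macrophages, with 0 or 1 such UMI, are called low macrophages and were the cells compared with them.

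All mice were C57BL/6, 8 to 12 weeks old and, per the study's methods, female, with the cells of several mice pooled in each library. Control ganglia came from uninjured mice and injury ganglia were taken 3 days after a sciatic nerve crush, a lesion of the axons far from the ganglion. The sample labels name L4 ganglia and the methods L4 and L5. Whole ganglia were dissociated with papain and collagenase, and the suspension was sorted for live cells before capture. Control libraries 1 and 2 gave 119 and 25 of the cells described here, with 370988 and 89771 UMIs in sum, and injury libraries 1 and 2 gave 178 and 106, with 930171 and 554400 UMIs. Median UMIs per cell were 2822 and 3156 in control and 4585 and 4766 in injury. Control library 2 was therefore the thinnest by far in summed UMIs, and the injury cells were deeper than the control cells. Between libraries 20 barcodes were shared, none of which belonged to these macrophages in both. Levels are given in CPM, the UMIs of a gene per 1000000 UMIs in the summed cells of a library. Since 1 UMI stands for 1 molecule whatever its length, levels were compared between genes without a length correction.

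Some macrophages settle in peripheral ganglia and nerves early in life, and they are joined by cells derived from blood monocytes, in particular after injury. CD163 takes up hemoglobin bound to haptoglobin, MRC1 (the mannose receptor) takes up glycoproteins with exposed mannose, and LYVE1 binds hyaluronan. These receptors mark tissue-resident macrophages, many of which lie along vessels or in the connective tissue sheaths, and in several organs the *Lyve1*-bearing cells among them are known for low surface MHC class II.

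The name of the cells was checked against macrophage genes that the rule did not use, and all 12 genes of that list were detected. *Lyz2*, the lysozyme of myeloid cells, was at 17523.5, 16453, 12344 and 10005 CPM in control 1, control 2, injury 1 and injury 2, the order kept below wherever 4 values follow each other. *Fcer1g*, an adaptor of Fc receptors, was at 3787, 3041, 4271 and 3727 CPM, and *Adgre1*, which encodes F4/80, at 766, 613, 630.0 and 675 CPM. Both sets of libraries thus held these genes at like levels, with *Lyz2* higher in the control libraries. The highest mean level over the 4 libraries was that of *Apoe*, the lipid carrier, at 56438, 48568, 27951 and 24058 CPM, although *Tmsb4x*, which encodes an actin-binding peptide, stood above it in both injury libraries (31206 and 31329 CPM). *Apoe* was more abundant still in glia, where barcodes with more than 4 *Fabp7* UMIs and no C1q UMI had 64914, 87975, 80471 and 87296 CPM, and the part of free RNA in the macrophage level was not tested. In the same glial barcodes *Mrc1* stayed at or under 1.76 CPM and *Cd163* at 0 UMIs, against 849, 613, 732 and 829.7 CPM of *Mrc1* and 404, 145, 155 and 159 CPM of *Cd163* in the macrophages that were chosen for them. Glia that had caught C1q RNA were left out of these barcodes, so their levels of macrophage genes may lie too low.

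*Mrc1* was the receptor behind most of the choice. It was detected in 415 of the 428 cells (97.0%), *Cd163* in 208 (48.6%) and *Lyve1* in 33 (7.71%). Both *Cd163* and *Mrc1* were found in 195 cells, *Mrc1* without *Cd163* in 220, *Cd163* without *Mrc1* in 13 and *Lyve1* alone in 0. *Cd163* was present in 70.6% of the cells of control library 1 but in 36.0, 38.2 and 44.3% of the cells of the other libraries. *Lyve1* was at 29.7, 200.5, 29.0 and 18.0 CPM, where the high value of control library 2 rests on 3 of its 25 cells. The median cell held 4 UMIs of the 3 genes and the highest 23. At the edge of the rule 122 cells (28.5%) had exactly 2 UMIs and 196 macrophages had 1. *Pf4*, a chemokine of resident macrophages, was at 2005 CPM in the cells with 1 UMI and at 2517 CPM in those with 2, *F13a1*, which encodes the clotting factor subunit XIIIA, at 174 and 283 CPM, and *Cd74*, the chaperone of MHC class II, at 30882 and 25815 CPM. Levels on either side of the limit were thus of the same order.

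These cells made up 47.0% of the non-cycling macrophages in control library 1 (95% interval 40.8 to 53.4, exact binomial) and 32.1% (21.9 to 43.6) in control library 2. In the injury libraries the share was 41.5% (36.8 to 46.3) and 66.25% (58.4 to 73.5). The intervals cover counting error only. The mean was 39.5 ± 10.6% (SD, n = 2) in control and 53.9 ± 17.5% in injury, and the groups overlapped, as 1 injury library lay between the control libraries (p = 0.667 in a two-sided exact permutation test over libraries, which with 2 against 2 cannot go below 0.333). With 1 library left out the difference of 14.3 percentage points ran from 1.95 without injury library 2 to 26.7 without injury library 1. Once each cell was thinned to 1500 UMIs before the rule it was -4.51 points, so its direction did not hold in that setting. The cell cycle limit was applied to thinned counts too, so cycling macrophages, which came mostly from injury libraries, could join the non-cycling ones. The parts of depth and of this change of cells were not tested. As a share of all barcodes that passed the limits they were 9.15 and 1.86% in control and 7.49 and 9.85% in injury, again overlapping (difference 3.16 points, p = 0.667, exact permutation test), and without control library 2 that difference was -0.477 points. In shares of a dissociated and sorted ganglion, fewer cells and poorer recovery of cells cannot be told apart.

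A comparison with low macrophages of the same libraries asked what else set the scavenger receptor cells apart. UMIs were summed per library and class and tested with edgeR's quasi-likelihood test with library as a block. A Benjamini-Hochberg adjusted p under 0.05 was the threshold for every call, and values after ± are standard errors of log2 fold changes. Of 5277 genes tested outside the rule 365 differed (6.92%), 153 of them higher (2.9%) and 212 lower (4.02%) in the scavenger receptor cells. The count was 199 with DESeq2, 220 without injury library 1 and 112 of 1934 with cells thinned before the rule. Resident and perivascular macrophage genes were higher, and MHC class II and monocyte genes were lower, by the counts given below. For MHC class II the classes stood closer in the control libraries than in the injury libraries. Depth was alike, since low macrophages had medians of 3100, 3295, 4241 and 4581 UMIs. As the receptors themselves chose the cells, and as the gene lists were drawn up with earlier results of these data known, the counts describe which other genes go with the receptors.

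Of 19 resident and perivascular macrophage genes tested, 18 were higher and 0 lower, with a median log2 fold change of 1.15 against -0.008 over all genes tested. *Pf4* was at 5089, 2874, 3768 and 3153 CPM in these cells and 1732, 1249, 1433 and 1093 CPM in low macrophages, a separation without overlap (log2 fold change 1.35 ± 0.09, adjusted p = 2.77e-06). *F13a1* had 493, 412, 557 and 637 CPM in these cells and 147, 135, 101 and 174 CPM in low macrophages. Its lowest value in the scavenger receptor cells exceeded its highest in low macrophages (1.94 ± 0.14, adjusted p = 3.29e-06). *Folr2*, a folate receptor of macrophages outside that list, had the highest fold change of the genes named, at 116, 134, 128 and 144 CPM in these cells and 26.9, 20.7, 20.0 and 0 CPM in low macrophages (2.70 ± 0.31, adjusted p = 0.000167). *Cbr2*, a carbonyl reductase, was at 326, 134, 503 and 619 CPM in these cells and 82.8, 62.2, 102 and 133 CPM in low macrophages (2.04 ± 0.14, adjusted p = 2.77e-06), and *Gas6*, the ligand that bridges dying cells to TAM receptors, at 501, 267, 594.5 and 613 CPM in these cells and 155, 171, 127 and 129.7 CPM in low macrophages (1.81 ± 0.17, adjusted p = 4.08e-05). Each of these 5 genes was higher in 4 of 4 libraries. *Dab2*, an endocytic adaptor, was higher by 1.12 on the log2 scale, *Selenop*, the selenium carrier, by 0.89, *Ltc4s*, which makes leukotriene C4, by 1.53, *Igf1*, a growth factor, by 1.40 and *Maf*, a transcription factor of resident macrophages, by 0.99.

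**Figure D1:**
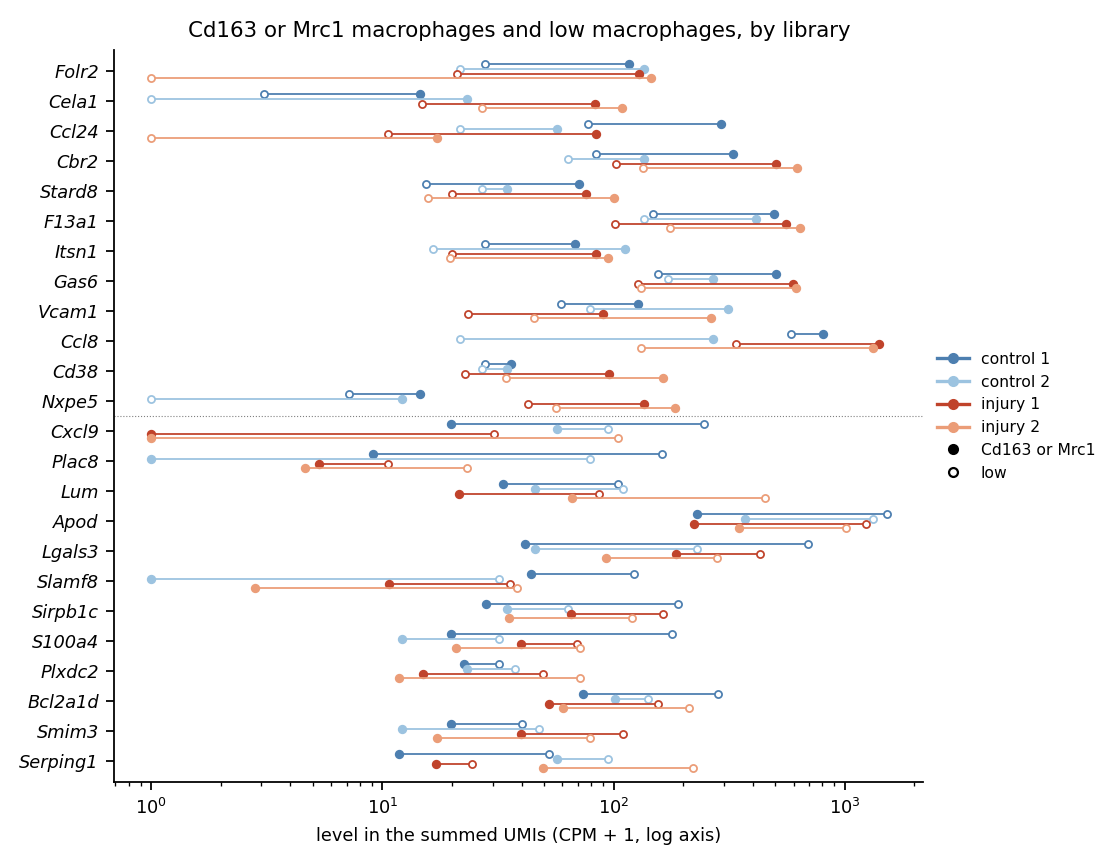
Levels (CPM + 1, log axis) of the 12 genes with the most positive and the 12 with the most negative log2 fold change in *Cd163* or *Mrc1* macrophages (filled) against low macrophages (open), with a line joining the classes of each of the 4 libraries. Filled points lie to the right of open ones in every library for the upper 12 genes, such as *F13a1* and *Cbr2*, and to the left for the lower 12, such as *Lgals3*.

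Among 15 further scavenger and lectin receptor genes 8 were higher and 2 lower (median 0.50). *Fcgrt*, the neonatal Fc receptor, was higher by 1.22 on the log2 scale, *Stab1*, which clears altered proteins, by 1.37, *Clec4n*, which encodes dectin-2, by 1.31 and *Clec10a*, a lectin for galactose sugars, by 1.18. Lower were *Clec7a*, the beta-glucan receptor dectin-1 (-1.50 ± 0.16, adjusted p = 0.000121), and *Axl*, a receptor of *Gas6* (-0.63 ± 0.17, adjusted p = 0.0351). Genes of heme and iron handling, the pathway into which CD163 feeds, were higher for 4 and lower for 1 of 12 (median 0.63). *Hmox1*, heme oxygenase, was at 310.0, 223, 264 and 247 CPM in these cells and 128, 93.3, 130.2 and 63.0 CPM in low macrophages (1.20 ± 0.15, adjusted p = 0.00031), higher in 4 of 4 libraries. *Blvrb* and *Blvra*, which reduce the biliverdin that heme oxygenase forms, were higher by 0.86 and 0.56, and *Hfe*, a regulator of iron uptake, by 0.82. *Fth1*, the heavy chain of ferritin, was lower (-0.38 ± 0.08, adjusted p = 0.0126).

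Chemokines split, with 4 higher and 5 lower of 16 (median -0.37). The higher ones were CC chemokines that draw monocytes or eosinophils. *Ccl7* was at 2776, 468, 3300.5 and 1466 CPM in these cells and 1533, 306, 914 and 485 CPM in low macrophages (1.25 ± 0.16, adjusted p = 0.000289) and *Ccl24* at 291, 55.7, 82.8 and 16.2 CPM in these cells and 76.6, 20.7, 9.55 and 0 CPM in low macrophages (2.25 ± 0.27, adjusted p = 0.000205), both higher in every library, while *Ccl12* and *Ccl2* were higher by 0.72 and 0.71. *Ccl8*, a CC chemokine counted in the resident macrophage list, was at 806, 267, 1398 and 1322 CPM in these cells and 586, 20.7, 337 and 129.7 CPM in low macrophages (1.78 ± 0.31, adjusted p = 0.00318). *Cxcl9*, an interferon gamma target, and *Ccl5*, both T cell attractants, fell most (-3.89 ± 0.51 and -4.29 ± 0.39), followed by *Cxcl16* (-0.82), *Ccl4* (-0.64) and *Ccl3* (-0.61). Of 12 genes of the cytokine and growth factor list 5 were lower and 1 higher (median -0.28). *Il1b* had 1040.5, 223, 915 and 126 CPM in these cells and 1761, 384, 2110.4 and 411 CPM in low macrophages (-1.18 ± 0.14, adjusted p = 0.000188). It was lower in 4 of 4 libraries, while in both classes the first library of each condition stood above the second. *Il1a*, *Il1rn*, *Tnf* and *Tgfbi*, a matrix protein gene on that list, were lower as well (-1.71, -1.37, -0.87 and -0.56), and *Grn*, which encodes progranulin, was higher by 0.34.

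All 4 monocyte genes tested were lower (median -2.78). *Ccr2*, the receptor that brings monocytes out of the blood, was at 239.9, 234, 242 and 204 CPM in these cells and 499, 492, 408 and 496.5 CPM in low macrophages, below low macrophages in every library (-1.09 ± 0.12, adjusted p = 0.000121). *Plac8* had 8.09, 0, 4.30 and 3.61 CPM in these cells and 161, 77.7, 9.55 and 22.2 CPM in low macrophages (-3.24 ± 0.47, adjusted p = 0.000756). *Vcan*, which monocytes express, was at 0 UMIs in the scavenger receptor cells. Of 22 lipid and phagocyte activation genes 5 were higher and 6 lower (median -0.16). The lysosomal proteases *Ctsb*, *Ctsl* and *Lgmn* were higher by 0.70, 0.68 and 0.44, together with the lysosomal membrane gene *Cd63* (0.68) and the cholesterol exporter *Abca1* (0.88). *Lgals3*, which encodes galectin-3, was lower, at 40.4, 44.6, 186 and 92.0 CPM in these cells and 693, 228, 428 and 278 CPM in low macrophages (-2.05 ± 0.30, adjusted p = 0.000816), and so were *Vim* (-1.04), *Cd9* (-0.95), *Spp1*, which encodes osteopontin (-0.95), and *Srgn* (-0.81). *Apoe* had a log2 fold change of 0.35 ± 0.11 (adjusted p = 0.0704).

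Genes known from microglia, the macrophages of the brain, were higher for 1 and lower for 3 of 11 (median 0.12). The fractalkine receptor *Cx3cr1* had 0.12 ± 0.10 (adjusted p = 0.642), with values of 445, 412, 463 and 460.0 CPM in these cells and 362, 384, 441 and 363 CPM in low macrophages, which overlapped between the classes. *Fcrls*, an Fc receptor-like gene, was higher (0.95 ± 0.10, adjusted p = 0.000123), and *Olfml3* and *Tmem119* were lower (-0.58 and -0.93). Complement genes outside the rule were higher for 2 and lower for 3 of 12, among them *Cfp*, which encodes properdin (0.83), and the C5a receptor *C5ar1* (0.49) on the one side and the complement receptor subunits *Itgax* (-2.62) and *Itgb2* (-0.54) on the other. Alternative activation genes were higher for 2 of 6, the IL-4 receptor *Il4ra* (0.89) and the transferrin gene *Trf* (0.64). Of 19 interferon-induced genes 2 were lower, and of 20 immediate early and heat shock genes, which dissociation can induce, 0 differed. Among 13 transcription factor and CSF1 axis genes 2 were lower, as were 2 of 11 S and G2/M phase genes outside the rule.

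Transcripts of other cells were looked for with 13 marker lists. T cell genes were at 0 UMIs in all 5 of 5 genes. Fibroblast genes (6 genes, led by *Dcn*) summed to 245, 267, 407 and 1228 CPM in the scavenger receptor cells and to 915, 1322, 592 and 2053 CPM in low macrophages. *Dcn*, *Lum* and *Apod*, a further gene of connective tissue cells, were lower in the scavenger receptor cells (-1.40 ± 0.20, -2.34 ± 0.22 and -2.26 ± 0.16). With cells that had more than 0.5% of their UMIs in other-cell markers left out, these 3 genes turned to 0.35, 0.37 and 0.40. *Dcn* and *Lum* are themselves among those markers, so that this limit lowers them by its construction, and 31.7% of the *Apod* UMIs of low macrophages came from 1 cell. Without those cells 468 genes differed in all. Satellite glial genes (6 genes, mostly *Dbi*, which macrophages also express) summed to 288, 1125, 602 and 732 CPM and Schwann cell genes (6 genes, mostly *Pmp22*) to 356, 1972, 321 and 997 CPM, highest in control library 2. Neutrophil genes reached at most 242 CPM with *Ly6g* at 0, and B cell genes at most 94.3 CPM with *Cd79a* at 0. Endothelial genes summed to 127, 290, 49.5 and 361 CPM, neuronal genes to 40.4, 278, 46.2 and 144 CPM, erythroid genes to 21.6, 134, 18.3 and 211 CPM and mural cell genes to 218, 22.3, 88.2 and 68.5 CPM. Mast cell genes stayed at or under 2.70 CPM, and those of *Cd209a* dendritic cells at or under 24.3 CPM with *Clec9a* and *Xcr1* at 0. Apart from the cells left out above, the part of these transcripts in the differences was not tested.

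Levels were also read along the number of receptor UMIs, on both sides of the limit. Non-cycling macrophages were divided by their UMIs of *Cd163*, *Mrc1* and *Lyve1* into those with 0, 1, 2 to 3, and 4 or more. *F13a1* ran through 92.9, 229, 342 and 620.3 CPM in control library 1, through 128, 147, 189 and 953 in control library 2, through 56.8, 175, 295 and 785 in injury library 1 and through 236, 108, 369 and 805 in injury library 2. The top bin was the highest in all 4 libraries, and injury library 2 alone broke the order at its lower end. The 4 MHC class II genes *Cd74*, *H2-Aa*, *H2-Ab1* and *H2-Eb1* together were lowest in the top bin of each library. They ran through 112925, 105323, 94062 and 69321 CPM in control library 1 and through 78639, 56212, 76258.5 and 40573.5 CPM in control library 2, where the order broke at 2 to 3 UMIs. In injury libraries 1 and 2 they ran from 56892 to 15170 CPM and from 49658 to 6040 CPM, falling at each step. Median depths of the bins lay between 2492.5 and 3686.5 UMIs in control library 1 and between 4110 and 4919 in injury library 1, and the top bin was the deepest in the 3 libraries other than control library 1. As the bins use the rule, no test was made. The top bin of control library 2 held 7 cells.

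**Figure D2:**
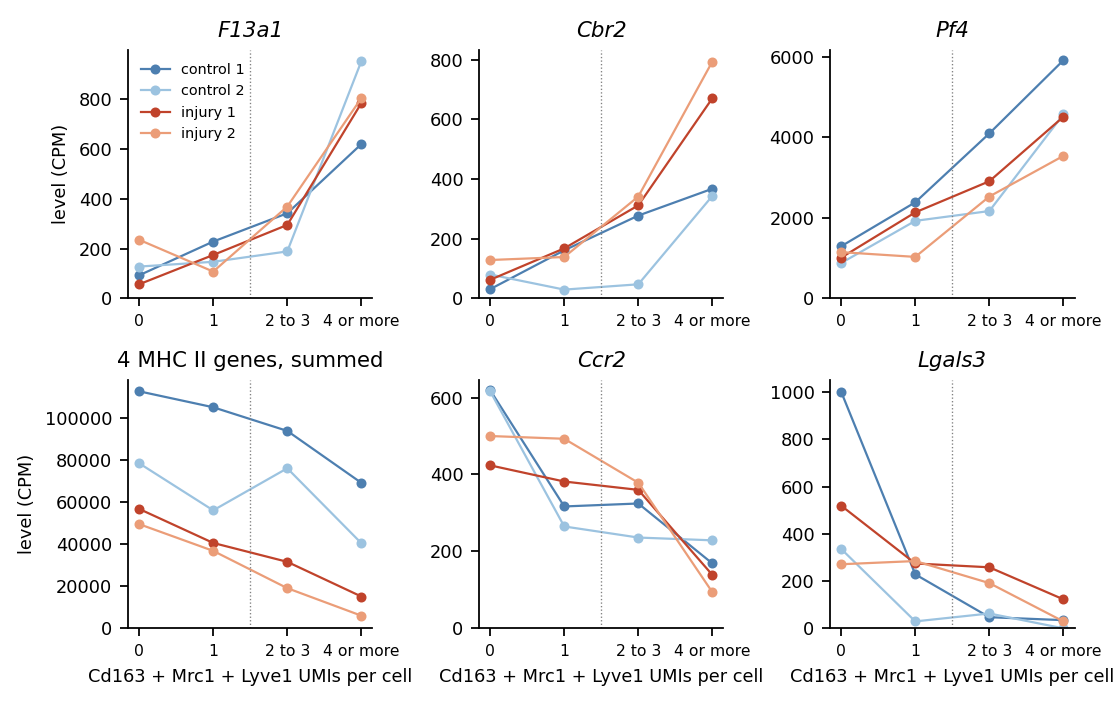
Levels (CPM) of 5 genes and of the sum of 4 MHC class II genes by the number of *Cd163*, *Mrc1* and *Lyve1* UMIs of a macrophage, with 1 line per library and a dotted line at the limit of the rule. *F13a1* was highest and the sum of the 4 MHC class II genes was lowest in the top bin of all 4 libraries.

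*Cd163* divided the cells further. Cells with a *Cd163* UMI were compared with those that were chosen by *Mrc1* or *Lyve1* alone, within 3 libraries (84 against 35 cells in control library 1, 68 against 110 in injury library 1 and 47 against 59 in injury library 2), as only 9 cells of control library 2 had the receptor. Values follow in that order. Of 4721 genes tested 68 differed (1.44%), 27 higher (0.572%) and 41 lower (0.868%) with the receptor, and the median UMIs per cell were alike (2836 against 2822, 4415 against 4743 and 4552 against 4856). *Ccl8* was at 1062, 2091 and 2040.0 CPM with the receptor against 185, 1027.5 and 753 CPM without it, with no overlap within a library (1.38 ± 0.13, adjusted p = 1.94e-12). *Folr2* was at 137, 225 and 216 CPM with the receptor against 64.7, 75.9 and 87.3 CPM without it (1.38 ± 0.22, adjusted p = 2.23e-05) and *Wfdc17*, a secreted protein with a WAP domain, at 643, 1078 and 1061 CPM with the receptor against 259, 452 and 630.5 CPM without it (1.04 ± 0.13, adjusted p = 1.89e-08). Resident macrophage genes were higher for 6 and lower for 0 of 19, and scavenger receptors higher for 4 and lower for 0 of 16.

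Cells that had *Mrc1* or *Lyve1* without *Cd163* were higher in 4 of 11 microglial genes and in 5 of 9 MHC class II genes. *Tmem119* was at 41.9, 55.6 and 73.4 CPM with the receptor against 83.2, 247 and 268 CPM without it (-1.88 ± 0.24, adjusted p = 1.13e-07), lower with the receptor in 3 of 3 libraries. *Il1b* was at 814, 476 and 40.8 CPM with the receptor against 1589.5, 1149.5 and 194 CPM without it (-1.24 ± 0.14, adjusted p = 1.41e-09) and *Cd14*, the co-receptor for endotoxin, differed by -0.73 ± 0.11 (adjusted p = 1.72e-06). *Cd74* was at 43935, 9517 and 3386 CPM with the receptor against 47731, 13544 and 8791 CPM without it (-0.67 ± 0.10, adjusted p = 5.88e-06), lower with the receptor in 3 of 3 libraries, and both injury libraries were below control library 1 on either side of the division. *Igfbp5*, which encodes a binding protein of insulin-like growth factors (-2.27), had 129 of its 312 UMIs in 1 cell. Fibroblast genes were lower for 4 of 5 with the receptor, and their part in the other differences was not tested. The number of genes called was 19 without control library 1, 26 without injury library 1 and 42 without injury library 2.

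**Figure D3:**
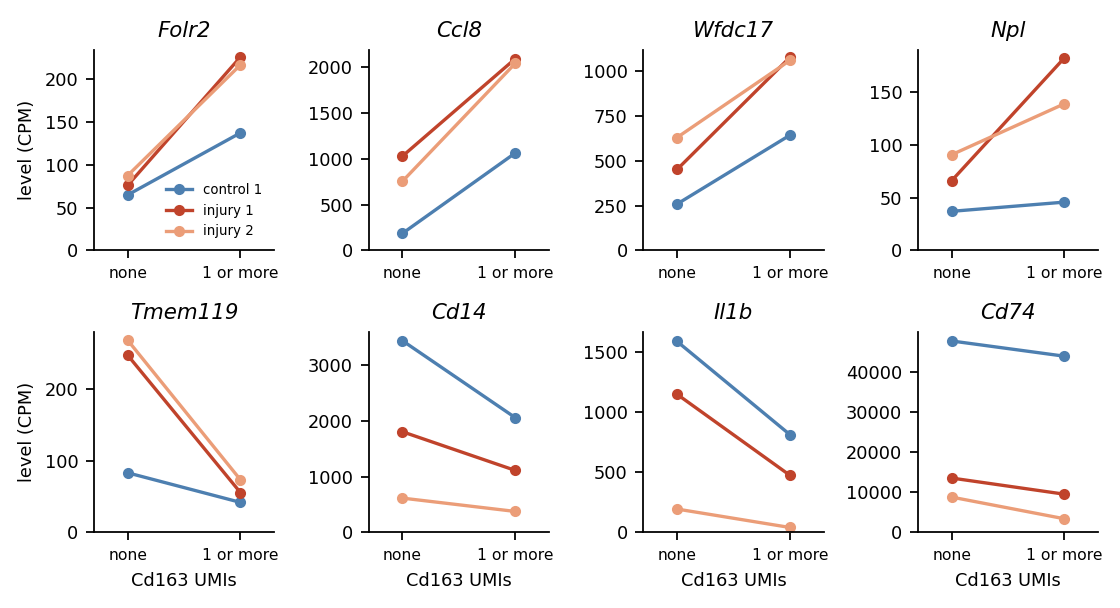
Levels (CPM) of 8 genes in *Cd163* or *Mrc1* macrophages without and with a *Cd163* UMI, with 1 line joining the values of each of 3 libraries. *Ccl8* and *Folr2* were higher and *Tmem119* and *Il1b* lower with the receptor in all 3.

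Injury was compared with control across the 4 libraries. No gene of 4945 tested was called (0%) by edgeR's quasi-likelihood test, with a smallest adjusted p of 0.164, and 376 genes (7.6%) had an unadjusted p under 0.05. DESeq2 called 8 genes, *Igfbp5*, *Nxpe5*, *Ctsd* and *Lgals1* higher and *H2-Ab1*, *H2-Aa*, *H2-Eb1* and *Cd74* lower after injury, and the quasi-likelihood test called 57, 224, 55 and 30 genes when control 1, control 2, injury 1 or injury 2 was left out. With the replicate number of the labels as a block it called 36 genes, 11 higher and 25 lower. Values are therefore given per library, and both injury libraries lay above both control libraries for 27.1% of the genes tested and below both for 12.8%.

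*Nxpe5* had 13.5 and 11.1 CPM in control and 134 and 184 CPM after injury, without overlap (log2 fold change 3.42 ± 0.41, adjusted p = 0.164), and *Cela1*, an elastase gene, had 13.5 and 22.3 CPM in control and 81.7 and 108 CPM after injury (2.42 ± 0.44, adjusted p = 0.378). Both genes were also called higher than in low macrophages (1.59 and 2.34). *Gpr84*, a receptor for medium-chain fatty acids, was at 0 UMIs in both control libraries and at 108 and 59.5 CPM after injury, and the mean of the injury libraries was at least 12.8-fold higher than control, taken at 3 UMIs over the summed control cells. *Spp1* had 5.39 and 11.1 CPM in control and 92.5 and 83.0 CPM after injury (3.53 ± 0.53, adjusted p = 0.266), *Lgals1*, which encodes galectin-1, 569 and 646 CPM in control and 2328 and 1824 CPM after injury (1.66 ± 0.32, adjusted p = 0.378) and *Ctsd*, the lysosomal cathepsin D, 588 and 557 CPM in control and 2288 and 1652 CPM after injury (1.66 ± 0.34, adjusted p = 0.378). The injury libraries were higher for each, by more than the gap between replicates, and none passed the adjusted threshold of this fit. *Igfbp5* (5.48) and *Col3a1* rested on few cells, with 129 of 312 and 47.4% of their UMIs in 1 cell.

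On the lower side *Sema4a*, a semaphorin of immune cells, had 159 and 78.0 CPM in control and 25.8 and 30.7 CPM after injury (-2.37 ± 0.40, adjusted p = 0.372) and *Slc11a1*, the phagosomal metal transporter, had 148 and 156 CPM in control and 60.2 and 45.1 CPM after injury (-1.63 ± 0.30, adjusted p = 0.378). The non-classical MHC class I genes *H2-T23* and *H2-Q7* share sequence with other class I genes, so that their counts are uncertain. *H2-T23* had 256 and 66.8 CPM in control and 36.6 and 18.0 CPM after injury (-2.85 ± 0.57, adjusted p = 0.378), and *H2-Q7* had 86.3 and 55.7 CPM in control and 15.1 and 7.22 CPM after injury (-2.81 ± 0.49, adjusted p = 0.372). *Mgl2*, a lectin of alternatively activated macrophages, had 2105 and 936 CPM in control and 490.2 and 471 CPM after injury (-1.83 ± 0.44, adjusted p = 0.419). The groups did not overlap for any of these 5 genes. Among the lists, lipid and phagocyte activation genes lay above both controls for 11 and below for 2 of 21 (median log2 fold change 0.28, against 0.003 over all genes tested), and microglial genes for 7 and 2 of 11 (median 0.44), among them *Tmem119* with 53.9 and 100.3 CPM in control and 181 and 182 CPM after injury (1.28 ± 0.33, adjusted p = 0.49). Resident macrophage genes lay above for 6 and below for 4 of 19 (median -0.22), and *Selenop* had 5086 and 4979 CPM in control and 3982 and 5487 CPM after injury. *Hspa1a*, a heat shock gene that dissociation can induce, had 2906 and 1203 CPM in control and 649 and 662 CPM after injury. The immediate early and heat shock list summed to 41252, 12643, 20192 and 11479 CPM, highest in control library 1. Its genes lay above for 0 and below for 3 of 19 (median -0.98), and 19 of 19 had a negative log2 fold change. Interferon-induced genes lay above for 1 and below for 4 of 19 (median -0.52), and transcription factor and CSF1 axis genes for 3 and 5 of 13 (median -0.59). Fibroblast genes, a marker list of other cells, lay above for 3 and below for 0 of 4 (median 1.85). Their sums were 245 and 267 CPM in control and 407 and 1228 CPM after injury. The part of fibroblast transcripts and of the immediate early response in the differences between control and injury was not tested.

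**Figure D4:**
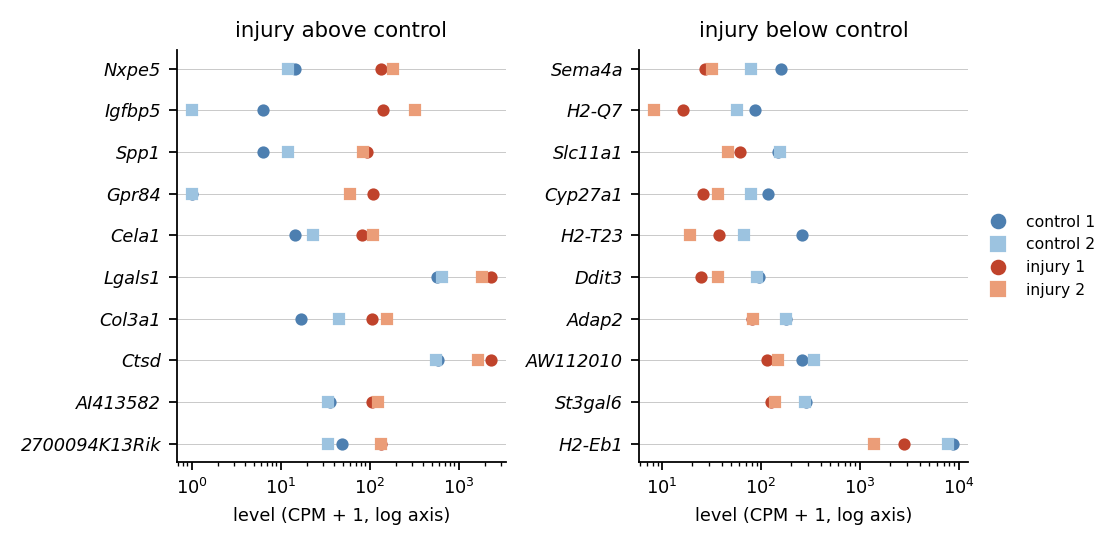
Levels (CPM + 1, log axis) in *Cd163* or *Mrc1* macrophages of the 2 control and the 2 injury libraries, with 1 point per library, for the 10 genes of smallest p with both injury values above both control values (left) and the 10 with both below (right). *Nxpe5*, *Lgals1* and *Ctsd* are among the first and *Sema4a*, *Slc11a1* and *H2-Eb1* among the second, and none of the 20 passed the adjusted threshold.

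The MHC class II genes, which load and show peptides to CD4+ T cells, had the lowest median of the 14 pathway lists between injury and control. Both injury libraries were below both control libraries for 7 of 9 genes (median -1.26). *Cd74* had 45042 and 36704.5 CPM in control and 12142 and 6402 CPM after injury (-2.25 ± 0.49, adjusted p = 0.381). The beta chain *H2-Ab1* had 14283.5 and 11618.5 CPM in control and 3955 and 1636 CPM after injury (-2.32 ± 0.51, adjusted p = 0.384), and the alpha chain *H2-Aa* had 12491 and 9691 CPM in control and 3987 and 1668 CPM after injury (-2.08 ± 0.51, adjusted p = 0.419). *H2-Eb1*, the other beta chain, had 8806 and 7819.9 CPM in control and 2782 and 1394 CPM after injury (-2.10 ± 0.45, adjusted p = 0.381). In each case the lower control library stood more than 2-fold above the higher injury library. Of the peptide loading subunits *H2-DMa* had 1059 and 869 CPM in control and 606 and 422 CPM after injury and *H2-DMb1* had 822 and 468 CPM in control and 354 and 247 CPM after injury. The costimulatory *Cd86* had 367 and 256 CPM in control and 184 and 157 CPM after injury, so that injury was the lower group for these genes too. Against low macrophages 8 of 11 genes of this list were lower and 0 higher (median -0.96). There *Cd74* differed by -0.96 ± 0.22 (adjusted p = 0.0139), *H2-Ab1* by -1.03 ± 0.24 (adjusted p = 0.0168), *H2-Aa* by -0.99 ± 0.21 (adjusted p = 0.011), *H2-Eb1* by -1.04 ± 0.20 (adjusted p = 0.00582) and *H2-DMb1* by -0.86 ± 0.12 (adjusted p = 0.000463). These values pool the 4 libraries. The genes of the list summed to 88194, 70613, 29114 and 14717 CPM in the scavenger receptor cells. In low macrophages they summed to 119455, 76052, 59996 and 49872 CPM. The classes thus stood closer in the control libraries, above all in control library 2, than in the injury libraries.

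These genes are switched on together by the coactivator CIITA, which is recruited by factors bound to short boxes upstream of each start. The promoters of 3 of them are printed because these genes stood lower together in both comparisons, each as the 250 bases before the annotated start in RefSeq (GRCm38.p6, the build known as mm10), 5′ to 3′ on the strand of the gene. Capitals mark GATTGG or its reverse complement CCAATC, the core letters of the Y box, which were searched on both strands. The window of *H2-Aa* lies at chr17:34287824-34288073 on the minus strand, that of *H2-DMb1* at chr17:34152941-34153190 and that of *H2-Eb1* at chr17:34305617-34305866, both on the plus strand.
H2-Aa: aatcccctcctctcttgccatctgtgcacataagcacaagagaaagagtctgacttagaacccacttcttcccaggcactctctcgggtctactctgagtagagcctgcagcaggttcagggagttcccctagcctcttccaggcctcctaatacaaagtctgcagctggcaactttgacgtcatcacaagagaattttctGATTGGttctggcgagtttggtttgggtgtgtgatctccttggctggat
H2-DMb1: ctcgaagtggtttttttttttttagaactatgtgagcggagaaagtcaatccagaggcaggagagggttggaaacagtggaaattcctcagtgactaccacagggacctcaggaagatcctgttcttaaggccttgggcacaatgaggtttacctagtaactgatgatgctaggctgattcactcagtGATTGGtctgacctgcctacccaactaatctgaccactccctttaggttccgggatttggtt
H2-Eb1: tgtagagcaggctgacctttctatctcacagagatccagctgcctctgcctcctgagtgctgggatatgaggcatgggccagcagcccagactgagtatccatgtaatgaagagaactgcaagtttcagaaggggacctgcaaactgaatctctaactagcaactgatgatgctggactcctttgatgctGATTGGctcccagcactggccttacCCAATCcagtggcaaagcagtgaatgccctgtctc
The letters start 49 bases before the start of *H2-Aa*, 62 before that of *H2-DMb1*, and 60 and 35 before that of *H2-Eb1*. Of 14 genes of the list 9 had a promoter in the table, with 10 promoters between them as *H2-DMa* has 2, and 8 of these 10 held the letters in this window, against 14.6% of all 32851 promoters of the same length. The match describes the sequence and was not compared with any binding data.

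Single cells differed widely in MHC class II. The share of a cell's UMIs that fell in *Cd74*, *H2-Aa*, *H2-Ab1* and *H2-Eb1* had a median of 7.95 and 7.80% in control and of 0.67 and 0.11% in injury. In low macrophages the medians were 11.75, 7.80, 4.93 and 4.0%. Glial barcodes without a C1q UMI, which should lack these transcripts, held 0.0531, 0.0196, 0.00584 and 0.00931% over all their UMIs at median depths of 2433, 4316, 3040 and 4829.5 UMIs. The choice by C1q leaves out glia that caught free macrophage RNA, so these shares may lie too low. Scavenger receptor cells with less than 1% of such UMIs, a limit set after the values were seen, were 11 of 119 and 4 of 25 in control (9.24 and 16%) and 98 of 178 and 78 of 106 in injury (55.1 and 73.6%). Neither injury library overlapped with control, and the difference of 51.7 percentage points had p = 0.333 in the exact permutation test, the smallest that the design allows. With each cell thinned to 1500 UMIs it was 52.0 points, and the injury cells under the limit had a median of 5424.5 and 5057 UMIs against 4008.5 and 4414.5 in the other injury cells with the receptors. Low macrophages under the limit were 5.22 and 13.2% in control and 23.5 and 33.3% in injury.

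**Figure D5:**
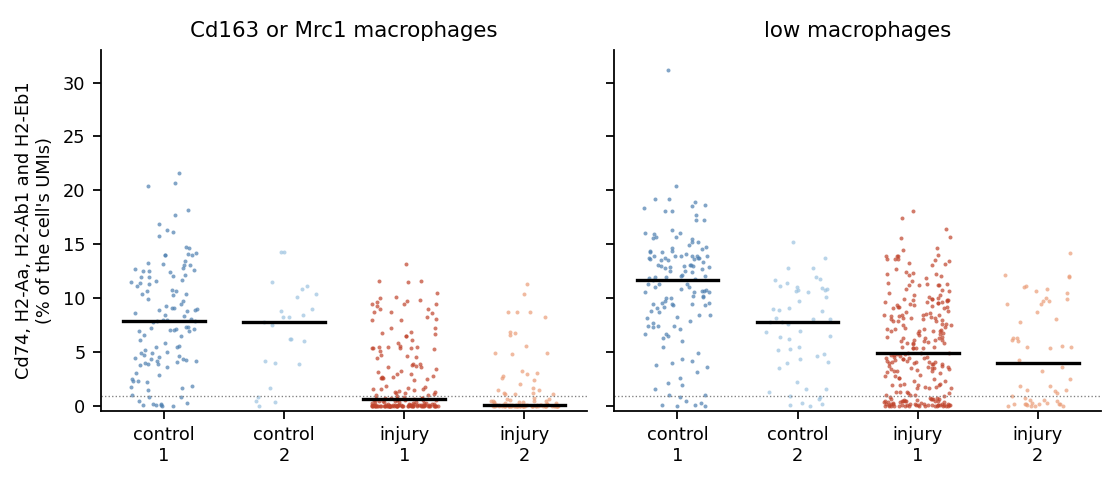
Percent of each macrophage's UMIs in *Cd74*, *H2-Aa*, *H2-Ab1* and *H2-Eb1*, with 1 point per cell, by library and class, black bars at the medians and a dotted line at 1%. The median of *Cd163* or *Mrc1* macrophages lies below the line in both injury libraries, and that of low macrophages in none.

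Whether injury acted alike in both classes was tested by the interaction of class and condition, and 18 of 5277 genes were called (0.341%), 11 with a more positive (0.208%) and 7 with a more negative (0.133%) injury effect in the scavenger receptor cells. *Cd74* had the smallest p, with a difference of log2 injury effects of -1.34 ± 0.17 (adjusted p = 0.00022), and its values in low macrophages were 59672, 38622, 27609 and 23921 CPM. *H2-Ab1*, *H2-Aa* and *H2-Eb1* had -1.42 ± 0.21 (adjusted p = 0.000789), -1.25 ± 0.20 (adjusted p = 0.00164) and -1.15 ± 0.20 (adjusted p = 0.00363). For all 4 genes the injury effect was thus more negative in the scavenger receptor cells than in low macrophages of the same libraries. Without injury library 2 *H2-Eb1* lost its call (-0.71, adjusted p = 0.12) and *H2-Ab1* and *H2-Aa* came to -0.94 and -0.79. *Ccl7* went the other way (0.91 ± 0.18, adjusted p = 0.0268), and so did *Lgals3*, which was scarce in the control scavenger receptor cells (2.45 ± 0.36, adjusted p = 0.000789). Each cell was also thinned to 1500 UMIs and the whole rule applied again, which left 1934 genes to test. Cells with few receptor UMIs moved into the low class, and cells with few cell cycle UMIs left could join either class. Low macrophages then numbered 146, 63, 365 and 136, against 134, 53, 251 and 54 before. *Cd74* was the single gene that passed there (-0.89, adjusted p = 0.026), while *H2-Aa*, *H2-Ab1* and *H2-Eb1* kept their sign without being called (-0.96, -0.86 and -0.70). *Lgals3* and *Ccl7* came to 0.42 and 0.38 under that setting and were not called either, nor was *Lgals3* without control library 1 (1.06) or *Ccl7* without injury library 1 (0.77).

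Cycling macrophages of the same gate, with more than 2 cell cycle UMIs, numbered 1, 3, 54 and 42. Of these 0, 1, 18 and 29 had at least 2 UMIs of the 3 receptors. Cycling cells thus made up 0, 3.85, 9.18 and 21.5% of the macrophages with at least 2 receptor UMIs and 0.741, 3.64, 12.5 and 19.4% of those with fewer. Both classes had their highest shares in the injury libraries, and neither class was above the other throughout. Among the non-cycling cells with the receptors the other S and G2/M phase genes lay above both controls for 4 and below for 0 of 10 after injury (median 0.56), beside 27.1% above and 12.8% below over all genes tested.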

How the data were processed

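The authors deposited, for each library, a matrix of raw UMI counts per gene and barcode, made with Cell Ranger on the mouse genome build mm10 (Partek is also named in the submitters' processing notes). UMI counts depend on cell depth and on free RNA, and the deposited counts were corrected for neither. Cells were selected by the limits of the methods and by the UMI rules given above, and no doublet caller was run. UMIs were summed per library and class, with at least 10 cells per sum, and tested with edgeR 4.0.16 (quasi-likelihood, TMM, filterByExpr, R 4.3.3), leaving out the 16 genes of the rule. DESeq2 1.42.0 was an alternative, and the fitting step was tested on simulated data. Nothing in the labels says which animals share a library, so p-values of injury against control measure the spread between 2 libraries per condition. The fits against low macrophages, of the interaction and by *Cd163* had library as a block. Their p-values measure how the difference between the classes varied from library to library. Genes named from the comparison with low macrophages were the 12 of largest fold change on each side among those called, with an average log2 CPM of at least 5 and 1 sign in 4 of 4 libraries. For injury they were the 10 of smallest p on each side whose groups did not overlap, for *Cd163* the 8 of largest fold change on each side, and for the interaction the 6 of smallest p, beside genes of the pathway lists. The cells, their rule and the gene lists were chosen with earlier results of these data known, and the comparison by *Cd163* was added after the data were seen. A planned division by *Lyve1* was not run, since 5, 3, 18 and 7 cells had a *Lyve1* UMI. A few genes are counted in the totals and lists but not reported here.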

Additional observations from a re-analysis of the deposited data

Results flagged for a closer look

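The injury effect differed between *Cd163* or *Mrc1* macrophages and low macrophages for 18 genes (interaction term of edgeR's quasi-likelihood test, adjusted p under 0.05), given here as the log2 injury effect in the first minus that in the second. For the MHC class II genes *Cd74*, *H2-Ab1*, *H2-Aa* and *H2-Eb1* it was -1.34, -1.42, -1.25 and -1.15. Among chemokines it was 0.906 for *Ccl7*, 1.46 for the interferon-induced *Cxcl10* and 5.72 for *Cxcl12*, where 82 of the 117 UMIs of low macrophages lay in 1 cell. *Lgals3* had 2.45, the fatty acid receptor *Gpr84* 7.77 and the matricellular gene *Cyr61* 2.90. The alternative activation gene *Retnla* had 6.27, with 118 of its 129 UMIs in 1 scavenger receptor cell, and *Igfbp5* had 5.44, with 129 of 312 UMIs in 1 cell. Other genes among the 18 mark other cells. Among them were *Ly6c1* (9.64) and *Igfbp7* (2.39) of endothelium, *Dcn* (1.24) of fibroblasts, the myelin gene *Mbp* (-1.93) and the potassium channel gene *Kcna1* (-3.48). For *Dcn* and *Igfbp7* 190 of 707 and 88 of 346 UMIs of the scavenger receptor cells came from 1 cell. With cells thinned to 1500 UMIs before the rule *Cd74* was the single gene called. Without control 1 the calls of *Cxcl10* (1.85), *Cxcl12* (8.25), *Cyr61* (3.98), *Gpr84* (5.45), *Igfbp5* (8.25) and *Lgals3* (1.06) were lost. For *Cxcl10*, *Cxcl12*, *Cyr61* and *Igfbp5* the difference without control 1 was larger than in the main fit. Without control 2 the calls of *Ly6c1* (1.61), *Mbp* (-0.93) and *Igfbp7* (1.59) were lost. Without injury 1 those of *Ccl7* (0.77), *Cxcl10* (1.16), *Cyr61* (3.12) and *Gpr84* (6.25) were lost. Without injury 2 those of *Dcn* (1.03), *H2-Eb1* (-0.71) and *Kcna1* (-3.39) were lost. *Kcna1* and *Retnla* changed sign, as given below. Fitted differences of genes near 0 in a group depend on the prior count and are no measure of size.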

How the results depend on the processing

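The number of genes called between injury and control, 0 as reported, was 72 without the filter on low counts, 187 with at least 4 receptor UMIs (7 cells of control library 2 then dropped out), 8 with DESeq2 and 30 to 224 with 1 library left out (57 without control 1, 224 without control 2, 55 without injury 1 and 30 without injury 2), and it stayed at 0 with RLE size factors, with cells thinned to 1500 UMIs, without any *Fabp7* UMI, at 5% mitochondrial UMIs and with at most 0.5% of UMIs in other-cell markers. Against low macrophages 365 genes became 112 of 1934 tested with thinned cells, 550 with at least 4 UMIs, 199 with DESeq2 and 220 to 357 with 1 library left out, lowest without injury 1. Of the 112 and 199 genes, 99 and 199 were among the 365. The interaction gave 30 genes without the filter, 1 with thinned cells, 7 without *Fabp7* UMIs and 15 to 31 with 1 library left out (31 without control 1), and the division by *Cd163* gave 19 to 42 against 68. The difference in share was -4.51 points among non-cycling macrophages and -0.209 among all filtered cells once cells were thinned, and the latter ran from -0.477 without control 2 to 6.81 without control 1. Thinned counts were also held to the cell cycle limit, so that cycling macrophages could join the non-cycling ones. With at most 0.5% other-cell markers, *Apod*, *Lum* and *Dcn* turned to 0.403, 0.373 and 0.347 against low macrophages. In the interaction *Dcn*, *Igfbp7* and *Mbp* turned to -0.765, -0.202 and 1.08 with thinned cells, *Kcna1* ranged from -3.85 to 3.00 and *Retnla* from -4.99 to 8.33 with 1 library left out. Over all alternatives, genes named against low macrophages kept their direction and call in 1042 cases, lost the call in 116, gained it in 4 and turned in 3. The cause of these changes was not tested. With 1 library left out, the lone library of a condition is assumed to vary like the others. The limit on other-cell markers and the division by *Cd163* were added after the data were seen. A planned limit of 2 other-cell UMIs was not run, as it left 22, 3, 25 and 0 cells, nor was the division by *Lyve1*. Control library 2 held the fewest of these cells, 25, and the fewest summed UMIs, 89771.

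Libraries of the 2 conditions share only a number. With replicate number as a block the injury comparison called 36 genes (11 higher, 25 lower), and none when it was left out, and the deviations of libraries with the same number correlated at 0.31, a single value since both pairs mirror each other. Erythroid genes in the receptor cells summed to 21.6 and 18.3 CPM in the first libraries and 134 and 211 CPM in the second, and *Il1b* stood higher in the first. The study's figure legends speak of independent experiments, and which libraries belong to each is not given there, in the methods or in the labels.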
